A study of Drosophila melanogaster with 6 samples.

Results

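The apoptosis core genes of Drosophila melanogaster described here are 10 genes, taken by symbol from the 17714 genes of the deposited tables: the inhibitor genes Diap1 and Diap2, the caspase genes Dronc, Drice and Dcp-1, the activator genes hid, rpr and grim, the adaptor gene Dark and the transcription factor gene p53. Poly(A) RNA of Kc cells, a line of embryonic origin with plasmatocyte-like traits, was sequenced in 6 libraries. The 3 wild-type (WT) libraries are labelled only as wild type. The 3 others carry ko in their genotype field (KO), and the series' title points to CG14906 (mettl4) as the gene in question. The titles of the KO libraries begin with OE. No label gives a clone, a culture, a date or the way the knockout was made, so the p-values measure how these libraries vary, and that variation may be technical.

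In fly cells the core of apoptosis is a chain of held-back proteases. Dark, the homologue of Apaf-1, assembles with the initiator caspase Dronc into an apoptosome, and active Dronc cleaves the effector caspases Drice and Dcp-1. Diap1 binds Dronc and the effector caspases and marks Dronc with ubiquitin, and cultured fly cells die when it is lost. Hid, Reaper and Grim bind the same pocket of Diap1 and release the caspases, and hid and rpr are known targets of p53.

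Total expected counts ran from 9963557 to 18906951 per library. CG14906 itself stood at 18.5 ± 1.91 CPM (counts scaled to library size) in WT and 19.7 ± 1.02 in KO (SD, n = 3 each; log2 fold change 0.096, SE 0.099, adjusted p = 0.435 by edgeR), and at a log2 fold change of -0.29 (adjusted p = 0.0486) once the median change of the other genes in its 1 Mb segment was subtracted. The RNA level thus does not check the ko label. Of 10 plasmatocyte markers, 8 reached a mean of 1 TPM (transcript abundance per length), and their sum was 873 to 1260 TPM in WT and 1341 to 2142 in KO. They moved both ways: Hml had 422 to 596 TPM in WT and 443 to 617 in KO, Col4a1 went from 113 to 249 up to 346 to 679, Pxn from 5.77 to 12.8 up to 88.7 to 228, and eater from 66.0 to 70.0 down to 14.2 to 16.7, while Sr-CI and NimC1 stayed low. The 4 germline markers summed to 2.57 to 3.06 TPM in WT and 91.5 to 139.7 in KO. Most of this was bam, at 2.37 to 2.7 and 39.1 to 45.0 TPM, and zpg, at 0 and 47.2 to 92.4. The germline genes vas and nos had at most 0.24 TPM in WT and 1.69 in KO. The 2 lamellocyte markers summed to 0.62 to 0.86 TPM in WT and 16.9 to 19.7 in KO. Their whole rise came from PPO3, while atilla was at 0 in every KO library. Markers of crystal cells, fat body and muscle summed to at most 2.23 TPM in any library. Neuron markers summed to 17.5 to 23.1 TPM in WT and 18.1 to 24.4 in KO, with elav at 13.4 to 15.5 and 8.25 to 9.78 TPM and brp at 3.82 to 8.05 and 8.92 to 13.8, and the roX RNAs, hallmarks of male cells, to at most 0.9 TPM. The part of these shifts in the values below was not tested. WT replicates 2 and 3, and KO replicates 2 and 3, resembled each other more than either resembled replicate 1 of its group (median chi-square per gene 0.62 and 0.78 against 2.51 or more).

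Differences between the groups were widespread: 54.1% of the 8405 genes that passed the filter on low counts were called at an adjusted p under 0.05, 27.7% higher and 26.5% lower in KO. Of the 10 core genes 8 passed that filter, and 4 of those 8 were called, 2 higher (hid and Dcp-1) and 2 lower (Diap1 and Diap2). That share lies close to the share of all genes. Over the 8 tested core genes the median absolute log2 fold change was 0.19, against 0.33 over all tested genes, and the median signed change was 0.016 against 0.0080. The CPM of WT and KO did not overlap for 5 of the 8, beside 63.3% of all tested genes. The count of 2 lower genes rested on Diap2 at its edge and became 1 without WT replicate 2, WT replicate 3, KO replicate 1, KO replicate 2 or KO replicate 3. With segment medians subtracted the split was 3 higher and 1 lower, as Dark was then called higher (log2 fold change 0.19, adjusted p = 0.0118) and Diap2 was not called.

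**Figure D1:**
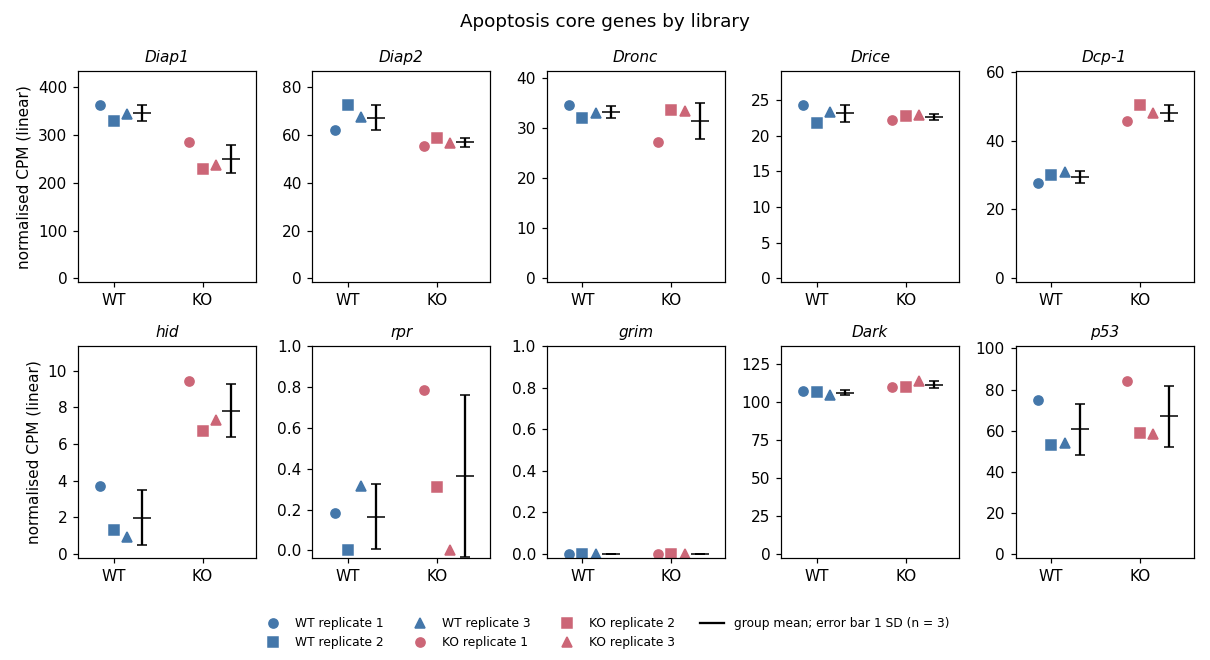
Normalised CPM (linear axes) of the 10 core genes in each library, with blue for WT, red for KO, one symbol per replicate number, and the group mean with 1 SD (n = 3) in black. Diap1 was lower and Dcp-1 and hid were higher in all 3 KO libraries than in any WT library, and grim was at 0 throughout.

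The inhibitor genes were both lower in KO. Diap1, at 16038410 to 16051034 of 3L (minus strand, dm6), had 362, 330 and 345 CPM in WT replicates 1 to 3 and 284, 230 and 237 CPM in KO replicates 1 to 3. Every KO library lay below every WT library, and KO replicate 1 was the nearest to WT. Diap1 fell from 346 ± 16.3 to 250.4 ± 29.7 CPM (SD, n = 3 each), a log2 fold change of -0.47 (SE 0.089, 95% interval -0.67 to -0.26, adjusted p = 0.00383 by edgeR's quasi-likelihood test). The other 87 tested genes of its 1 Mb segment had a median log2 fold change of 0.20, and relative to them Diap1 stood at -0.66 (adjusted p = 0.00106, within 9.95e-07 to 0.0167 over the 15 other settings tried). In bulk RNA, fewer cells that express a gene and less of its RNA per cell cannot be told apart.

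Diap2, at 15932170 to 15934825 of 2R (minus strand), encodes an IAP that is best known for ubiquitin signalling in the Imd immune pathway and that can also bind Drice. It had 62.0, 72.5 and 67.6 CPM in WT against 55.3, 59.0 and 56.6 in KO. The groups did not overlap, but the gap between the lowest WT library and the highest KO library was small beside the spread in WT. Diap2 fell from 67.3 ± 5.27 to 57.0 ± 1.87 CPM, a difference of -0.24 on the log2 scale (SE 0.072, adjusted p = 0.0260 by edgeR). This call was lost without any single library other than WT replicate 1 (adjusted p = 0.0503 to 0.0894), with WT replicates 2 and 3 summed to 1 sample (0.0776) and with segment medians subtracted (log2 fold change -0.14, adjusted p = 0.157).

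The caspase genes did not move together. Dcp-1, an effector caspase that also acts in autophagy during oogenesis, lies at 23551313 to 23553547 of 2R (plus strand). It had 27.6, 30.1 and 31.0 CPM in WT against 45.6, 50.3 and 48.0 in KO, so that the groups were far apart and narrow. Dcp-1 rose from 29.6 ± 1.74 to 48.0 ± 2.33 CPM, a difference of 0.70 on the log2 scale (SE 0.076, 95% interval 0.52 to 0.88, adjusted p = 0.000301 by edgeR), the lowest adjusted p among the core genes. Its exons share 239 bases with pita, a gene for a zinc finger protein on the opposite strand, and the use of strand in counting is not given in the sources used here. The counts of pita went the other way, from 162 ± 2.65 to 102 ± 9.63 CPM (log2 fold change -0.66, adjusted p = 0.000296 by edgeR). Expected counts were 455.09 for Dcp-1 and 2699.91 for pita in WT replicate 1, and 637.5 and 1585.5 in KO replicate 1. In every library the fractions of Dcp-1 and pita made up whole counts, so some reads were split between these genes in counting. How far this split moved either fold change was not tested.

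Drice, the other main effector caspase gene, lies at 29799658 to 29801584 of 3R (plus strand) and has no intron. It had 24.3, 21.8 and 23.4 CPM in WT against 22.2, 22.8 and 22.9 in KO. All 3 KO values lay within the range of the WT values. The change on the log2 scale was -0.035 (95% interval -0.20 to 0.13, adjusted p = 0.699 by edgeR). Within libraries, the TPM of Dcp-1 was 1.26, 1.53 and 1.47 times that of Drice in WT and 2.27, 2.44 and 2.32 times in KO.

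Dronc, the only initiator caspase that joins Dark, lies at 9968479 to 9971002 of 3L (plus strand). It had 34.6, 32.1 and 33.1 CPM in WT against 27.3, 33.7 and 33.5 in KO. Only KO replicate 1 stood below the WT range, and the other KO libraries fell inside it. The log2 fold change of -0.081 (95% interval -0.31 to 0.15, adjusted p = 0.506 by edgeR) turned to 0.0074 without KO replicate 1, to 0.032 without both libraries numbered 1 and to 0.058 with segment medians subtracted, and was called in none of these.

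Dark, at 17020027 to 17026703 of 2R (plus strand), encodes the apoptosome adaptor and had the smallest standard error of the core genes. It had 107, 107 and 104 CPM in WT against 110, 110 and 114 in KO. The KO libraries were all just above the WT libraries, by a log2 fold change of 0.067 (SE 0.046, 95% interval -0.040 to 0.17, adjusted p = 0.248 by edgeR). Its exons share 2779 bases with the antisense gene asRNA:CR44390, to which 8.61 to 22.8 counts per library were assigned, against 1069 to 1992 for Dark. Per length, Dark RNA stood at 1.29 ± 0.045 times the TPM of Dronc in WT and 1.44 ± 0.16 times in KO, with overlapping ranges.

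Among the activators, hid was the one gene that passed the filter. It lies at 18167745 to 18185641 of 3L (minus strand), and it had 61, 13 and 18 counts in WT and 132, 87 and 84 counts in KO. In CPM these were 3.70, 1.296 and 0.943 in WT and 9.43, 6.73 and 7.29 in KO. The groups did not overlap, and WT replicate 1 stood well above the other WT libraries. hid rose from 1.98 ± 1.501 to 7.82 ± 1.43 CPM, a difference of 1.96 on the log2 scale (SE 0.47, 95% interval 0.85 to 3.07, adjusted p = 0.0107 by edgeR). Of all tested genes 6.35% had a larger absolute fold change, beside 22.2% for Dcp-1, 36.4% for Diap1 and 62.0% for Diap2. By p-value of the edgeR test hid ranked 3135 among the 8405 tested genes. Without WT replicate 1 the log2 fold change was 2.83 (adjusted p = 0.000478) and without both libraries numbered 1 it was 2.69, fits that leave the 2 closest WT libraries alone in WT. The other 56 tested genes of its 1 Mb segment had a median log2 fold change of -0.25. hid passed the filter on low counts in each group taken alone.

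Reaper RNA was near the limit of detection. rpr (3L at 18397535 to 18398435, no intron) had 3, 0 and 6 counts in WT and 11, 4 and 0 in KO, that is 9 and 15 in all, and did not pass the filter. The groups overlapped. In the fit without a filter its log2 fold change was 0.93 (SE 1.003, adjusted p = 0.4996 by edgeR), and DESeq2 gave an adjusted p of 0.632. grim (3L at 18302719 to 18304417, no intron) had 0 counts in all 6 libraries, which allows up to 0.0659 CPM in WT and 0.0777 CPM in KO (3 counts over the total of the group, a limit for the counting error alone, as no molecular identifiers are recorded). The noncoding gene lncRNA:CR45975, which shares 541 exon bases with grim on the same strand, was likewise at 0 counts.

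The 3 activator genes and skl, another gene of this class, sit in 1 stretch of 272 kb on 3L with 17 genes of the deposited tables. hid was the only one of the 17 above 1 CPM in any library and the only one to pass the filter. The highest value among the other 16 was 0.786 CPM, for rpr in KO replicate 1, and 7 of the 17 had no count in any library. skl had 3 counts in WT and 0 in KO. Without the filter skl was tested and not called (adjusted p = 0.276 by edgeR).

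p53, at 23049657 to 23054082 of 3R (minus strand), followed the library number more than the group. It had 74.9, 53.05 and 53.9 CPM in WT against 84.2, 58.8 and 58.2 in KO. Replicate 1 was 1.40 times the mean of the other libraries in WT and 1.44 times in KO, while KO replicate 1 was 1.12 times WT replicate 1 and the means of the other libraries differed by 1.09 times. KO lay above WT by 0.14 on the log2 scale (SE 0.19, 95% interval -0.29 to 0.58, adjusted p = 0.538 by edgeR). With the library number as a block it was 0.14 (adjusted p = 0.0565), without both libraries numbered 1 it was 0.12 (adjusted p = 0.0364), without KO replicate 1 it was -0.060 and with segment medians subtracted -0.13. The fit without both libraries numbered 1 keeps only the closest libraries of each group, and its SE was 0.044. p53 shares 812 exon bases with asRNA:CR46089 on the opposite strand, which had 13.0, 6.08 and 6.02 CPM in WT against 12.9, 12.8 and 13.4 in KO (log2 fold change 0.62, adjusted p = 0.110 by edgeR). How reads over the shared bases were divided was not tested. Corp, a p53 target named here after its values were seen, was also highest in WT replicate 1, at 5.34 CPM against 1.296 and 1.47, and had 2.14, 1.08 and 1.04 CPM in KO (adjusted p = 0.237 by edgeR).

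The order of RNA levels per length was read from TPM. Diap1 was by far the highest, at 266 ± 10.8 TPM in WT and 189 ± 18.4 in KO. In WT it was followed by p53 (62.1 ± 14.3), Diap2 (50.8 ± 4.45), Dark (32.9 ± 0.40), Dcp-1 (26.3 ± 1.71), Dronc (25.5 ± 0.77) and Drice (18.6 ± 0.87), with hid at 1.02 ± 0.80 and rpr at 0.30 ± 0.29. The ranges of p53 and Diap2, of Dcp-1 and Dronc, and of hid and rpr overlapped in WT. In KO Dcp-1 moved up to 42.0 ± 2.704 TPM, past Dark (34.0 ± 1.59) and level with Diap2 (42.4 ± 2.01), whose range it overlapped. Inhibitors, caspases and adaptor were thus present in both groups while the activators were scarce.

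**Figure D2:**
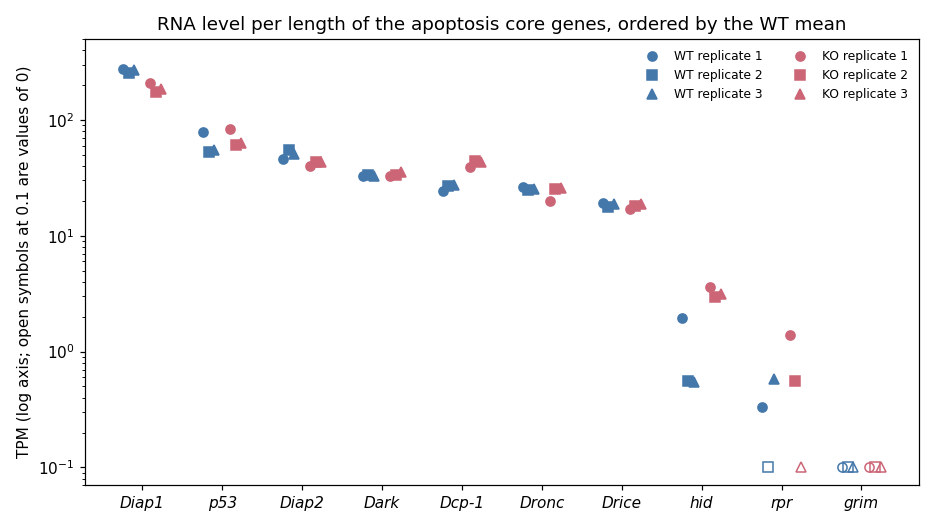
TPM of the core genes (log axis) in each library, ordered by the WT mean, with blue for WT, red for KO and one symbol per replicate number. Open symbols at the bottom stand for values of 0, and a gap separates Drice, at 17.1 TPM or more in every library, from hid, at 3.61 TPM or less.

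Set against each other, the inhibitors summed to 323, 310 and 318 TPM in WT and to 249, 217 and 228 TPM in KO. The 3 caspase genes summed to 69.9, 69.2 and 71.8 TPM in WT and to 76.1, 87.2 and 87.8 TPM in KO. Both sums separated the groups without overlap, in opposite directions. The inhibitor sum was therefore 4.51 ± 0.099 times the caspase sum in WT and 2.79 ± 0.43 times in KO, with KO replicate 1 the highest of its group at 3.28. Diap1 made up 83.9 ± 1.73% of the inhibitor sum in WT and 81.6 ± 2.08% in KO, and these ranges overlapped. Dcp-1 made up 37.4 ± 2.20% of the caspase sum in WT and 50.2 ± 0.94% in KO. Among these 3 caspase genes only Dcp-1 rose, while the TPM of Dronc and of Drice overlapped between the groups. For caspase genes outside this sum, mean TPM in WT and KO was 46.2 and 19.7 for Dredd and 27.9 and 28.6 for Strica. It was 0.23 and 1.26 for Damm and 0.11 and 0.14 for Decay. The summed TPM of hid, rpr and grim was 2.27, 0.56 and 1.13 in WT and 4.99, 3.49 and 3.14 in KO, so the inhibitor sum was at least 49.98 times as high in every library, lowest in KO replicate 1. These sums are descriptions of RNA and were not tested, since the genes were chosen with their values known.

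**Figure D3:**
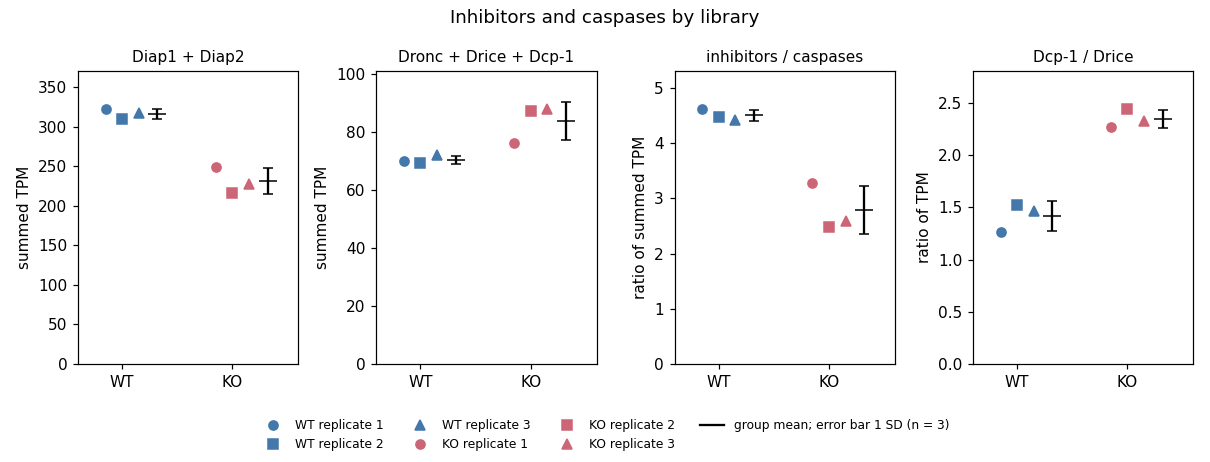
Summed TPM of Diap1 and Diap2, summed TPM of Dronc, Drice and Dcp-1, the ratio of these sums, and the ratio of Dcp-1 to Drice, per library, with group means and 1 SD (n = 3) in black. The ratio of sums lay between 4.42 and 4.62 in WT and between 2.49 and 3.28 in KO, and the ratio of Dcp-1 to Drice between 1.26 and 1.53 in WT and between 2.27 and 2.44 in KO.

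Transcript usage of the core genes, which the choice of members did not use, was read from the transcript length that RSEM weights by isoform. Of 3791 genes tested for effective length with limma, 3.09% were called, and Diap1, Diap2 and p53, the 3 core genes that met the conditions, were not. The weighted length of Diap1 was 2004 ± 1.79 bases in WT and 2010 ± 4.56 in KO (adjusted p = 0.497), and that of p53 1536 ± 49.8 and 1489 ± 23.2 bases (adjusted p = 0.526). Both Diap2 transcripts were used, the longer one at 36.7 to 47.1% in WT and 24.3 to 56.6% in KO (adjusted p = 0.966). For Dark, every read was assigned to the shorter of its 2 transcripts in each library. hid lay below the mean TPM of 5 set for this test, and no test of its length is reported here. Its longer transcript of 4018 bases was given a share of 37.3, 71.5 and 22.9% in WT and 87.0, 66.5 and 74.0% in KO, on 13 to 132 counts per library.

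A wider list of 37 other cell death genes gave 30 tested, 9 higher and 12 lower in KO, beside 27.7% higher and 26.5% lower of all tested genes, with a median log2 fold change of -0.094 and a median absolute change of 0.30, near the 0.33 of all tested genes. WT and KO did not overlap for 21 of the 30, beside 63.3% of all tested genes. The counts by role rest on few genes and are read beside the 54.1% called over all genes. The p53 and damage arm had 1 higher and 4 lower of 6 tested, and engulfment had 3 higher and 2 lower of 5. The IAP and caspase regulators had 2 higher and 1 lower of 7 tested, the death receptor arm 2 higher of 3, and DNA breakdown 2 lower of 3. The other caspases had 1 higher and 1 lower of 3 tested, the IAP family 1 lower of 2, and the Bcl-2 family 1 lower of 1. The higher caspase gene, Damm, is among the 9 higher but passed the filter only through KO, so its call carries little weight. Under the stricter filter Damm was not tested, and 8 of 29 genes of the list were higher. Without KO replicate 3 only 5 were called higher, and over all other settings tried 6 to 10. The 7 genes that did not pass the filter were skl, the effector caspase gene Decay, the Bcl-2 family gene Buffy, the testis cytochrome c gene Cyt-c-d, the TNF receptor gene grnd, the engulfment receptor gene NimC4 and the nuclease gene DNaseII.

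Of the caspases on that list, Dredd, an initiator-type caspase of the Imd pathway, fell from 49.5 ± 1.12 to 21.5 ± 1.53 CPM. The difference was -1.21 on the log2 scale (SE 0.076, adjusted p = 3.69e-05 by edgeR). With segment medians subtracted, Dredd stood at a log2 fold change of -0.62. Its inhibitor dnr1, a RING finger protein, fell from 17.9 ± 1.86 to 3.61 ± 1.01 CPM, a difference of -2.30 on the log2 scale (SE 0.20, adjusted p = 0.000124). Damm, a caspase gene named after its values were seen, had 0.36, 0 and 0.21 CPM in WT and 1.07, 0.77 and 1.04 in KO, and passed the filter only through KO. Debcl, the death-promoting member of the Bcl-2 family, fell from 81.4 ± 5.59 to 52.4 ± 1.49 CPM, a difference of -0.63 on the log2 scale (SE 0.068, adjusted p = 0.000278). Bruce, a giant IAP-type ubiquitin enzyme also named after its values were seen, stood at a log2 fold change of -0.29 (adjusted p = 0.00425), and at -0.58 with segment medians subtracted. Det, the other IAP family gene on the list, stood at -0.028 (adjusted p = 0.731).

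The largest rise on the list was that of egr, the fly TNF ligand, from 8.69 ± 1.53 to 80.7 ± 7.02 CPM, a difference of 3.21 on the log2 scale (SE 0.14, adjusted p = 6.71e-06 by edgeR). Fadd, the adaptor that joins Dredd to the Imd complex and was named after its values were seen, stood at 15.4 ± 1.54 and 20.5 ± 1.48 CPM (adjusted p = 0.0132), a call lost without KO replicate 2 (0.0563), without KO replicate 3 (0.0508) and with segment medians subtracted (0.614). eff, the ubiquitin-conjugating enzyme that works with Diap1, rose from 460 ± 3.40 to 726 ± 56.4 CPM, a difference of 0.66 on the log2 scale (SE 0.069, adjusted p = 0.000257). AIF, a mitochondrial flavoprotein tied to caspase-independent death, rose from 48.1 ± 0.99 to 85.3 ± 4.61 CPM, a difference of 0.83 on the log2 scale (SE 0.061, adjusted p = 6.24e-05). With segment medians subtracted eff stood at 0.32 and AIF at 0.45, both still called (adjusted p = 0.00831 and 0.00108). The engulfment receptor gene drpr rose from 57.3 ± 2.37 to 128 ± 3.34 CPM (log2 fold change 1.16, adjusted p = 1.04e-05).

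In the p53 and damage arm, the checkpoint kinase genes grp (Chk1) and mei-41 (ATR) fell by 0.65 and 0.48 on the log2 scale (adjusted p = 0.000145 and 0.00176 by edgeR). With segment medians subtracted grp fell by 0.37. The arm did not move one way. tefu and lok, named after their values were seen, stood at log2 fold changes of 0.27 and -0.29 (adjusted p = 0.0364 and 0.00516 by edgeR). Of the DNA breakdown genes, Drep4, the caspase-activated nuclease, fell from 24.2 ± 1.56 to 15.2 ± 0.64 CPM (log2 fold change -0.67, adjusted p = 0.00053). With segment medians subtracted the fall of Drep4 was not called (adjusted p = 0.0828). The called genes of the list that are not named lay between log2 fold changes of -0.55 and 0.29.

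**Figure D4:**
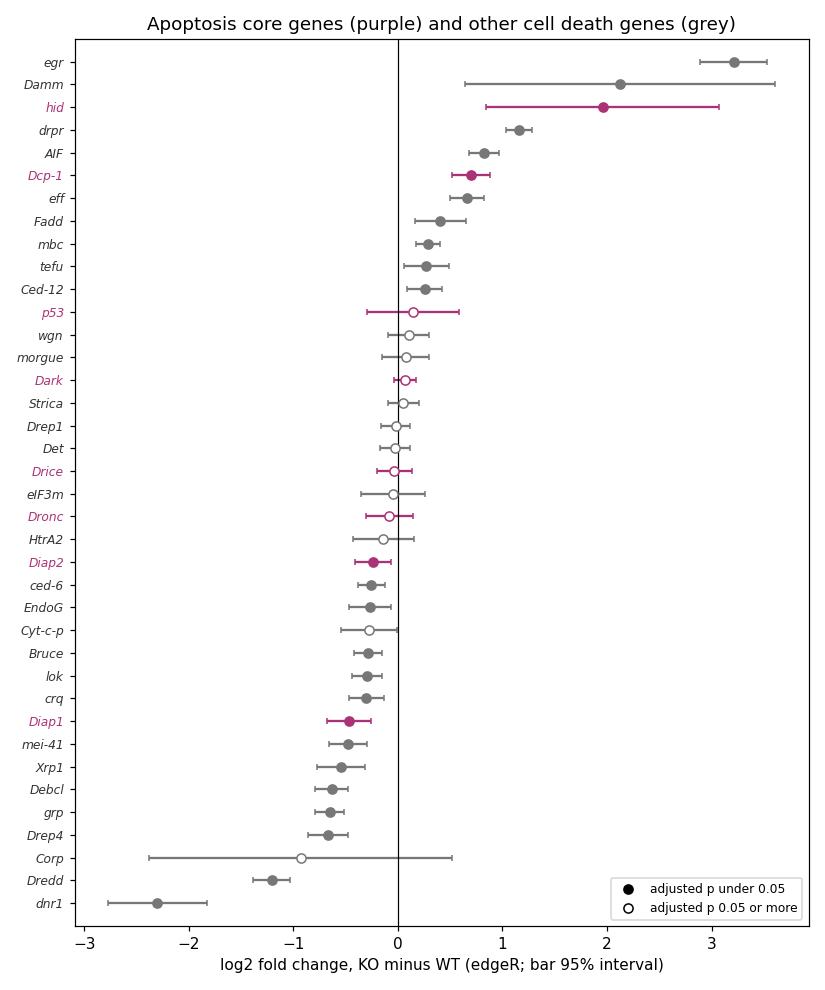
Log2 fold change of KO over WT (edgeR, 6 libraries) with its 95% interval for the 8 tested core genes (purple) and the 30 other tested cell death genes (grey), in order of size, with filled symbols for an adjusted p under 0.05. hid and Dcp-1 were called on the higher side and Diap1 and Diap2 on the lower side, and the core genes lay inside the range set by egr (3.21) and dnr1 (-2.30).

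Over the 6 libraries the genes outside the core set whose log2 CPM ran most like that of Dcp-1 included the chaperone genes Hsc70-4 and Gp93, with Pearson r of 0.9990 and 0.9987. These describe 2 groups that stand apart rather than 6 independent points, and 870 genes reached 0.95 or more. Their log2 fold changes of 0.49 and 0.41 were below the 0.70 of Dcp-1.

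The calls of Diap1, Dcp-1 and hid were the ones that stood under each of the 15 other settings of the analysis. Over those settings the log2 fold change lay between -0.66 and -0.41 for Diap1, between 0.64 and 0.78 for Dcp-1 and between 1.41 and 2.83 for hid.

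**Figure D5:**
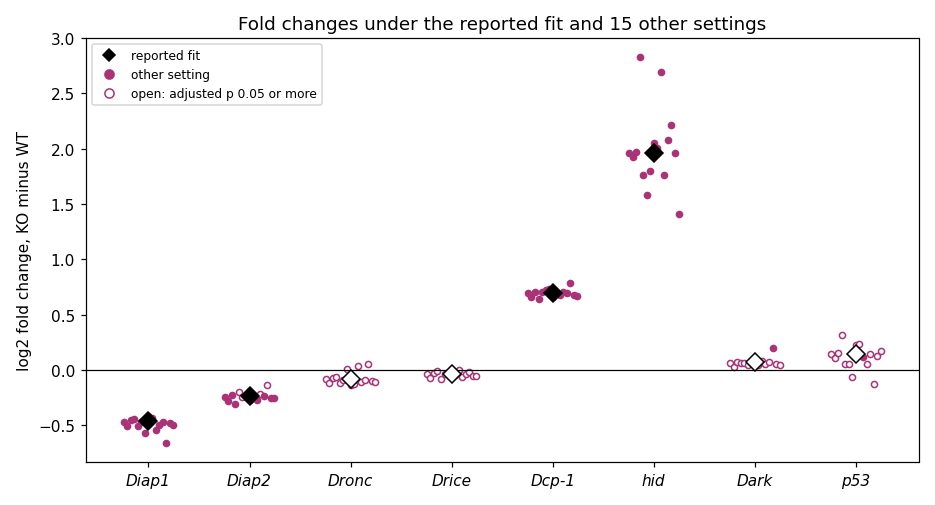
Log2 fold change of KO over WT for the 8 tested core genes in the reported fit (black diamond) and in 15 other settings (purple circles), with open symbols for an adjusted p of 0.05 or more. The points of Diap1, Dcp-1 and hid stayed filled and on their side of 0, while those of Dronc and p53 crossed 0.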

How the data were processed

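Per the submitters' processing notes, reads were handled with CASAVA 1.7, cutadapt, STAR 2.7.0f and RSEM 1.3.0 on dm6. The annotation release and the strand setting are unknown here. Dcp-1 and pita, on opposite strands, shared fractional counts in every library, so strand did not fully separate their reads. Per the file headers, the authors deposited RSEM expected counts, TPM (scaled to the same sum over all genes in each library) and isoform-weighted lengths in bases per gene. FPKM was not used here.

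After rounding, the expected counts went into edgeR 4.0.16 (R 4.3.3). TMM scaling and filterByExpr (minimum count 10) were followed by the quasi-likelihood test, with p adjusted by Benjamini-Hochberg over 8405 genes and a threshold of 0.05. CPM use TMM-scaled totals (factors 0.979 to 1.02). An SE of this test is the absolute log2 fold change divided by the square root of F. Effective length was tested with limma 3.58.1 on the log2 scale for multi-transcript genes whose mean TPM was 5 or more. Coordinates are from the Ensembl annotation of dm6, which held 17587 of the 17714 identifiers. On simulated counts for KO against WT (8304 genes passing), the test recovered 43 of 50 changes of 2-fold and 33 of 50 of 1.5-fold, and 12 of 8107 unchanged genes were called.

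The labels name no pairs. Across genes, libraries of the same number deviated together from their group means (r of 0.49, 0.13 and 0.34), each over the limit of 0.1 used here for taking the numbers as pairs, although WT replicate 2 correlated as well with KO replicate 3 (0.32). The block is an alternative fit.

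The core genes and the list of 37 were chosen with earlier results of these data known. Named from that list were the genes that failed the filter and the 10 called with the lowest adjusted p. Strica and Det, which were tested and not called, were named outside this rule. Other exceptions are marked where they appear. The rule also took the 3 genes most like the core gene with the lowest adjusted p, of which 1 is not reported here.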

Additional observations from a re-analysis of the deposited data

How the results depend on the processing

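Of the 15 other settings (RLE scaling, DESeq2 1.42.0, no filter, a stricter filter, each library left out, both number-1 libraries left out, WT replicates 2 and 3 summed, the replicate block, segment medians, and log2(TPM + 0.5) with limma), none changed the call or direction of Diap1, Dcp-1, hid or Drice. With the replicate block 4 core genes were called as before and 5061 genes in all, and no call of a core gene changed (Diap2 adjusted p = 0.0126, p53 0.0565). With WT replicates 2 and 3 summed, 1 core gene was lower, as Diap2 (-0.22) was not called. With segment medians subtracted, 1 core gene was lower: Diap2 stood at -0.14, Dark was called at 0.19, Dronc turned to 0.058, p53 to -0.13 and CG14906 to -0.29. Without both number-1 libraries, which leaves only the closest libraries of each group, Dronc turned to 0.032 and p53 was called at 0.12. Leaving out 1 library at a time gave 1 to 2 lower core genes, 5 to 9 higher genes on the wider list, and log2 fold changes of -0.31 to -0.20 for Diap2, -0.14 to 0.0074 for Dronc and -0.060 to 0.32 for p53. The length change of Diap2 ran from -0.0074 to 0.0057. The log2 fold change in expression of Corp ran from -1.37 to 0.033, the latter without WT replicate 1. From summed CPM in place of TPM, inhibitors stood at 4.802 times caspases in WT and 3.03 in KO. Beyond what construction shows (fewer libraries, other scaling), the cause of these shifts was not tested. Depth limits rpr, grim and the isoform shares of hid.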
